A study of Homo sapiens with 10 samples.

Results

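Transcripts of 37 lysosome and autophagy genes were followed in the human synovial sarcoma line HS-SY-II, an established cell line, after exposure to WA-68, a PROTAC (a small molecule that marks its target protein for destruction) directed at BRD9. The genes were taken by symbol from a list of lysosomal enzymes, their carriers, lysosomal membrane proteins, proton pump subunits, autophagy factors and 3 transcription factors. All 37 matched a single identifier among the 63140 in the deposited count table, and all 37 passed the filter on low counts. Cells had received 100 nM WA-68 for 12, 24, 48 or 96 h, or the DMSO vehicle, with 2 biological replicates in each of the 5 groups. When the DMSO cultures were harvested is not stated in the labels, and all 10 libraries come from 1 cell line.

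The lysosome is the acidic compartment in which proteins, lipids and sugar chains are broken down. Its soluble hydrolases are carried there from the Golgi, its membrane proteins move ions and lipids, and a vacuolar proton pump keeps it acidic. Autophagy encloses cytoplasm in a double membrane that then fuses with the lysosome. Many of these genes carry a palindromic site, the CLEAR element, that is bound by TFEB, TFE3 and MITF, related transcription factors which mTORC1 holds back in fed cells by phosphorylation.

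Total counts per library ran from 7349744 to 13200051, and levels are given in CPM, the gene's count scaled to a common library total with TMM normalization factors. Changes are log2 fold changes with their standard error (SE) from edgeR's quasi-likelihood test, and a gene counted as called where its p, adjusted by the Benjamini-Hochberg method over all 16382 genes tested, was under 0.05. BRD9 itself stood at 104.1 CPM in DMSO and 88.7 CPM at 96 h and was not called at any time, and protein was not measured here. On the second principal component the replicates 2 of DMSO and of 96 h lay at -24.2 and -26.0, away from the other libraries (-0.71 to 14.4). In both groups the difference of replicate 2 from replicate 1 rose with a gene's GC content (Spearman rho 0.571 in DMSO and 0.289 at 96 h, across genes, which are not independent replicates). It fell with GC content in the other groups, with rho of -0.059 at 12 h, -0.167 at 24 h and -0.292 at 48 h. The 48 h trend was thus about as large as that at 96 h, with the opposite sign. The median GC content was 51.6% in the 37 genes and 48.4% in all genes tested. Replicate 2 of 96 h also had the lowest total count and the highest share of counts from mitochondrial genes, 10.9% against 6.79% to 8.75% in the other libraries, and its part in the 96 h calls that were lost without it was not tested. Member counts are therefore given below also without that pair of libraries and with an offset for GC content.

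RefSeq promoter windows (GRCh38.p14) were found for 29 of the 37 genes. CACGTG, the core of the CLEAR element and its own reverse complement, lay within 250 bases upstream of a RefSeq start in 9 of the 29, against 7.73% of the 27305 genes with a window. TCACGTGA, which contains that core, lay upstream in 5 of the 29 (1.04% of all genes), and the full GTCACGTGAC, which contains both, in 2 of the 29 (0.374% of all genes). The windows below show 100 bases each, 5′ to 3′, with every CACGTG in capitals. CTSA, CTSD and NEU1 are shown as genes with the core whose transcripts rose. GAA, MCOLN1 and CLCN7 have the core but were not called against DMSO by edgeR with all libraries, TMM factors and no GC offset. GRN and TPP1 rose and have no CACGTG in the 250 bases. The genes shown were chosen after their values were seen.
CTSA (chr20:45891235-45891334, plus strand): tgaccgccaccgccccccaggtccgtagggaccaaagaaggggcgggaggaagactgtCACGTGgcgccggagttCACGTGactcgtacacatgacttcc
CTSD (chr11:1763928-1764027, minus strand): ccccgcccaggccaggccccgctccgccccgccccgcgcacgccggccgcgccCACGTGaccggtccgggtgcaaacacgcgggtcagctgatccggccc
NEU1 (chr6:31862872-31862971, minus strand): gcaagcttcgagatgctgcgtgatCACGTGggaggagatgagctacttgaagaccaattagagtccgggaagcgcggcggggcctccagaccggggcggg
GAA (chr17:80101481-80101580, plus strand): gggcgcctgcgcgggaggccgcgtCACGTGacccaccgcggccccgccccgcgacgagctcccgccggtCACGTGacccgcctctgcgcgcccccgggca
MCOLN1 (chr19:7522524-7522623, plus strand): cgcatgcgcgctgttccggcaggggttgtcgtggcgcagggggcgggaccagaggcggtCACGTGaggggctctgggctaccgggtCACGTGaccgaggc
CLCN7 (chr16:1475029-1475128, minus strand): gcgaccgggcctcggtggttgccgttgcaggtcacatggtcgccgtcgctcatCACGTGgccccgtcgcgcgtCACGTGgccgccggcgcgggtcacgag
GRN (chr17:44345202-44345301, plus strand): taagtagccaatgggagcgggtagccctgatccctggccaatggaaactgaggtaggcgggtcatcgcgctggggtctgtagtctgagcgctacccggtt
TPP1 (chr11:6619423-6619522, minus strand): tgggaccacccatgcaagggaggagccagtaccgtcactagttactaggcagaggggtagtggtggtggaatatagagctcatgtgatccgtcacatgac
Each window ends 1 base before the start site, except that of NEU1, which ends 51 bases before it. GAA holds the full GTCACGTGAC at both of its sites and MCOLN1 at 1 of its 2. Of the 9 genes with CACGTG, 3 were called higher at 1 or more times, and of the 20 without it 5 were (GRN, NPC2, SQSTM1, TPP1 and WIPI1). Over all genes tested 7.52% were called higher at 1 or more times. That share was not split by CACGTG, so these counts do not show whether the site goes with a rise. No entry was found for ASAH1, ATP6V1A, ATP6V1H, CTSB, HEXA, LAMP2, PSAP and UVRAG. Only exact matches were searched, so related sites count as absent. The TPP1 window ends in gtcacatgac, which differs from GTCACGTGAC at 1 base. A match in these windows is a description of the sequence, and factor binding was not measured.

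Some transcripts of soluble lysosomal enzymes, their carriers and autophagy genes rose after WA-68: 4, 3, 6 and 4 of 13 soluble hydrolases were called higher at 12, 24, 48 and 96 h, 2 of 3 carriers and activators at each time, and 0, 0, 1 and 2 of 7 autophagy genes. Of the 7 lysosomal membrane proteins, 4 proton pump genes and 3 MiT/TFE factors 0 were called against DMSO by edgeR with all libraries, TMM factors and no GC offset. In other fits LAMP1, LAMP2, ATP6V1H, ATP6AP1 and TFE3 were called higher. Whether the roles differ from each other was not tested. Over all roles, at 12 h 6 of the 37 genes were called higher, against 1.23% of all genes tested, and 0 were called lower (1.92% of all genes). The counts were 5 higher at 24 h (1.34% of all genes), 9 at 48 h (4.01%) and 8 at 96 h (6.14%), and again 0 lower at each of these times (2.25%, 5.38% and 6.86% of all genes). The median log2 fold change of the 37 was 0.18, 0.18, 0.18 and 0.15 at 12, 24, 48 and 96 h, while the median over all genes tested lay between -0.0083 and -0.0009. The 4 comparisons share the same 2 DMSO libraries and are not independent. In RNA from bulk cultures, a shift in the kinds or states of cells and a change of RNA per cell cannot be told apart.

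In all, 10 of the 37 genes were called higher at 1 or more times, as were 7.52% of all genes tested. CTSA, NEU1, GRN and NPC2 were called at all 4 times, CTSD and HEXA at 3, TPP1 and WIPI1 at 2, and ASAH1 and SQSTM1 at 1. Counting libraries instead, 27 of the 37 genes had both 12 h libraries above both DMSO libraries, against 21.4% of all genes tested. This held for 21 at 24 h (22.2% of all genes), 22 at 48 h (22.9%) and 21 at 96 h (23%). Both libraries lay below both DMSO libraries for 1, 1, 2 and 2 of the 37 genes at the 4 times, against 22.1%, 23%, 25.2% and 25% of all genes. For 16 of the 37 genes all 8 WA-68 libraries lay above both DMSO libraries, as they did for 7.2% of all genes tested.

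**Figure D1:**
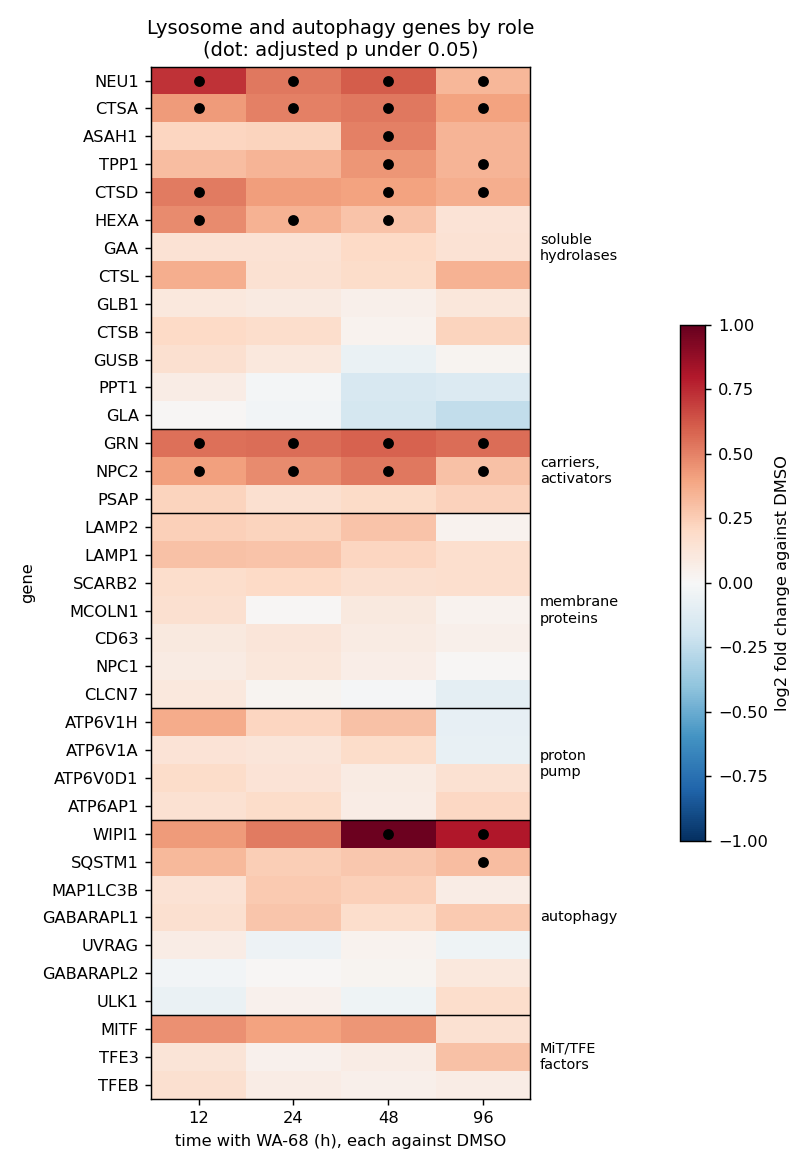
Log2 fold change against DMSO (colour) of each of the 37 genes (rows, grouped by role) at 12, 24, 48 and 96 h (columns), with a dot where the adjusted p was under 0.05. The dots lie on 6 of 13 soluble hydrolases, 2 of 3 carriers and activators and 2 of 7 autophagy genes, and on none of the membrane proteins, pump subunits or MiT/TFE factors.

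The counts moved with single libraries. When 1 of the 2 libraries of a time was left out, fewer of all genes tested were called at that time too. The losses in those fits are therefore not particular to these genes. Without replicate 1 of 12 h, 1 gene was called at 12 h, and without replicate 2 of 12 h 3 were. Without replicate 2 of 24 h 1 was called at 24 h, without replicate 1 of 24 h 3 were, and without either 96 h library 8 were. At 48 h 4 were called without replicate 1 of 48 h. At 96 h 3 were called without replicate 1 of DMSO or replicate 2 of 96 h, 4 without replicate 1 of 48 h, and 5 without any 1 of the 12 h or 24 h libraries. Leaving out replicate 2 of DMSO and replicate 2 of 96 h together gave 12, 11, 13 and 9 genes called higher at the 4 times, and an offset for GC content gave 11, 10, 13 and 12. Calls over all genes rose in these fits too: 2.88%, 2.7%, 5.31% and 6.64% of genes tested were higher without the pair, and 2.91%, 3.04%, 5.86% and 8.74% with the offset. Every gene called with all libraries at 12, 24 and 48 h kept its call in both of those fits. At 96 h CTSD, NEU1, TPP1 and WIPI1 lost theirs without the pair and kept it with the offset. In 1 or both of these fits CTSB, GUSB, GAA, PSAP, LAMP1, ATP6V1H, ATP6AP1, GABARAPL1, ULK1 and TFE3 were called higher at 1 or more times as well.

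Among the hydrolases, CTSA (ENSG00000064601, GRCh38 chromosome 20, 45890144 to 45898820) encodes cathepsin A, a carboxypeptidase that also protects the sialidase NEU1 and the beta-galactosidase GLB1 in a shared complex. CTSA stood at 147 and 170.2 CPM in the DMSO libraries, 219 and 208 CPM at 12 h, 224 and 225 CPM at 24 h, 231 and 225 CPM at 48 h, and 207 and 212 CPM at 96 h. All 8 WA-68 libraries lay above both DMSO libraries. It rose by 0.43, 0.50, 0.53 and 0.40 on the log2 scale, with an SE of 0.091 at every time (edgeR adjusted p = 0.00904, 0.00216, 0.00067 and 0.00402). The calls at 24 and 48 h held without any single library, the 12 h call was lost without replicate 1 of DMSO or either 12 h library, and the 96 h call without replicate 1 of DMSO (adjusted p = 0.0572). Exons of CTSA share 200 bases of 5856 with PLTP and 1038 with NEURL2 on the opposite strand, and the strand setting of the counting is not given in the sources used here.

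NEU1 (ENSG00000204386, chromosome 6, 31857659 to 31862906), the sialidase that removes terminal sialic acid from sugar chains, had the largest 12 h rise of the 37 genes. Its levels were 45.3 and 44.9 CPM in DMSO, 77.3 and 71.5 CPM at 12 h, 57.9 and 71.7 CPM at 24 h, 72.6 and 64.6 CPM at 48 h, and 54.9 and 59.1 CPM at 96 h. The groups did not overlap with DMSO at any time, and the 2 libraries at 24 h lay further apart than those of the other groups. It rose 1.65-fold at 12 h, or 0.72 on the log2 scale with an SE of 0.11 (edgeR adjusted p = 0.000274), 1.44-fold at 24 h, 1.52-fold at 48 h and 1.26-fold at 96 h (adjusted p = 0.00602, 0.000868 and 0.0443). The 12 h and 48 h calls held without any single library. The 24 h call was lost without replicate 2 of 24 h (adjusted p = 0.29), and the 96 h call rested on several libraries, being lost without either DMSO, 12 h or 96 h library or replicate 1 of 48 h, and with a term for replicate number (0.056).

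GLB1, the third enzyme of that complex, was not called at any time. It stood at 58.1 and 58.6 CPM in DMSO and between 54.5 and 67.4 CPM in the WA-68 libraries, which lay on both sides of DMSO. Its log2 fold change at 48 h was 0.05 with a 95% interval of -0.17 to 0.27. The ratio of NEU1 to GLB1 CPM was 0.766 and 0.78 in DMSO and ran from 0.858 to 1.25 in the WA-68 libraries. That of CTSA to GLB1 ran from 2.54 to 2.9 in DMSO and from 3.29 to 4.13 with WA-68. These ratios are a description of pairs chosen after their values were seen.

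HEXA (ENSG00000213614, chromosome 15, 72340919 to 72376476), the alpha subunit of beta-hexosaminidase, which degrades GM2 ganglioside, rose early and then came back towards the DMSO level. It stood at 88.9 and 89.2 CPM in DMSO, 126 and 121 CPM at 12 h, 115 and 112 CPM at 24 h, 109.8 and 107 CPM at 48 h, and 99.7 and 96.3 CPM at 96 h. Both libraries of each time lay above both of DMSO. On the log2 scale it rose by 0.47 at 12 h with an SE of 0.087 (edgeR adjusted p = 0.00251), by 0.35 at 24 h (adjusted p = 0.0271) and by 0.28 at 48 h (0.0439), and the difference at 96 h, 0.14, was not called. The 12 h call was lost without replicate 1 of 12 h, the 24 h call without replicate 2 of DMSO or any 1 of the 12 h or 24 h libraries, and the 48 h call without any 1 of the DMSO, 12 h, 24 h or 48 h libraries. Of its 12611 exon bases 617 are shared with AC009690.1 on the same strand, which held 89 counts in all.

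CTSD (ENSG00000117984, chromosome 11, 1752752 to 1764573), the aspartic protease cathepsin D, stood at 30.8 and 36.8 CPM in DMSO and at 47.8 and 48.6 CPM at 12 h. It stood at 46.6 and 43.2 CPM at 24 h, 45.2 and 43.4 CPM at 48 h, and 38.2 and 49.0 CPM at 96 h. The WA-68 libraries all lay above DMSO, and replicate 1 of 96 h lay closest to it. CTSD rose 1.44-fold at 12 h, or 0.52 on the log2 scale with an SE of 0.12 (edgeR adjusted p = 0.0146), and was called at 48 h (0.40, adjusted p = 0.0364) and 96 h (0.37, adjusted p = 0.0471) but not at 24 h (0.42, adjusted p = 0.0529). All 3 calls were lost without replicate 1 of DMSO (0.0966, 0.215 and 0.335), where the values at 48 and 96 h were 0.27 and 0.23. The 96 h value was 0.19 without replicate 2 of 96 h and 0.56 without replicate 1. The 12 h call was also lost without either 12 h library, the 48 h call without replicate 1 of 24 h or either 48 h library, and the 96 h call without any 1 library other than replicate 2 of DMSO or replicate 1 of 96 h. The annotation places 1304 of its 3126 exon bases also in the gene AC068580.4 on the same strand, which held 32 counts over all libraries, so reads from that stretch may have been left out of the CTSD count.

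TPP1 (ENSG00000166340, chromosome 11, 6612763 to 6619485), tripeptidyl peptidase 1, stood at 51.3 and 49.8 CPM in DMSO, 64.5 and 61.0 CPM at 12 h, 63.9 and 64.1 CPM at 24 h, 71.5 and 65.8 CPM at 48 h, and 58.2 and 70.9 CPM at 96 h. It was called at 48 h with a log2 fold change of 0.44 and an SE of 0.10 (edgeR adjusted p = 0.00745) and at 96 h (0.34, adjusted p = 0.0273). The 48 h call was lost without replicate 1 of 48 h, and the 96 h call without either DMSO library or without replicate 2 of 96 h, where the value was 0.20 (0.18 without replicate 2 of both DMSO and 96 h). ASAH1 (ENSG00000104763), acid ceramidase, stood at 50.2 and 42.1 CPM in DMSO, 56.6 and 51.4 CPM at 12 h, 50.4 and 57.7 CPM at 24 h, and 65.6 and 51.2 CPM at 96 h. At 48 h it stood at 68.9 and 62.9 CPM, the only time it was called (0.51, SE 0.12, adjusted p = 0.00818 by edgeR). That call was lost without replicate 2 of DMSO (adjusted p = 0.055) or replicate 1 of 48 h. Neither gene's WA-68 libraries overlapped with DMSO at any time.

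The remaining 7 hydrolases were not called at any time by edgeR with all libraries, TMM factors and no GC offset. The lysosomal proteases CTSB and CTSL, the glycogen-degrading GAA, GLB1 and the glucuronidase GUSB had log2 fold changes between -0.07 and 0.36 over the 4 times. CTSL came closest, at 15.1 and 15.8 CPM in DMSO against 20.7 and 19.0 CPM at 12 h and 18.5 and 21.1 CPM at 96 h, with adjusted p = 0.162 and 0.0908 by edgeR. GAA, whose promoter window above holds the full element at both sites, stood at 102.7 and 116 CPM in DMSO and between 118 and 129.9 CPM with WA-68, all 8 libraries above DMSO, with log2 fold changes of 0.14 to 0.20. It was called at 48 h with the GC offset and in the fit without replicate 2 of DMSO and of 96 h. The palmitoyl thioesterase PPT1, whose exons share 1189 bases with CAP1 on the opposite strand, and the alpha-galactosidase GLA had values of -0.16 and -0.18 at 48 h, and GLA stood at 27.4 and 24.0 CPM at 96 h against 30.9 and 30.6 CPM in DMSO (log2 fold change -0.25, adjusted p = 0.168).

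**Figure D2:**
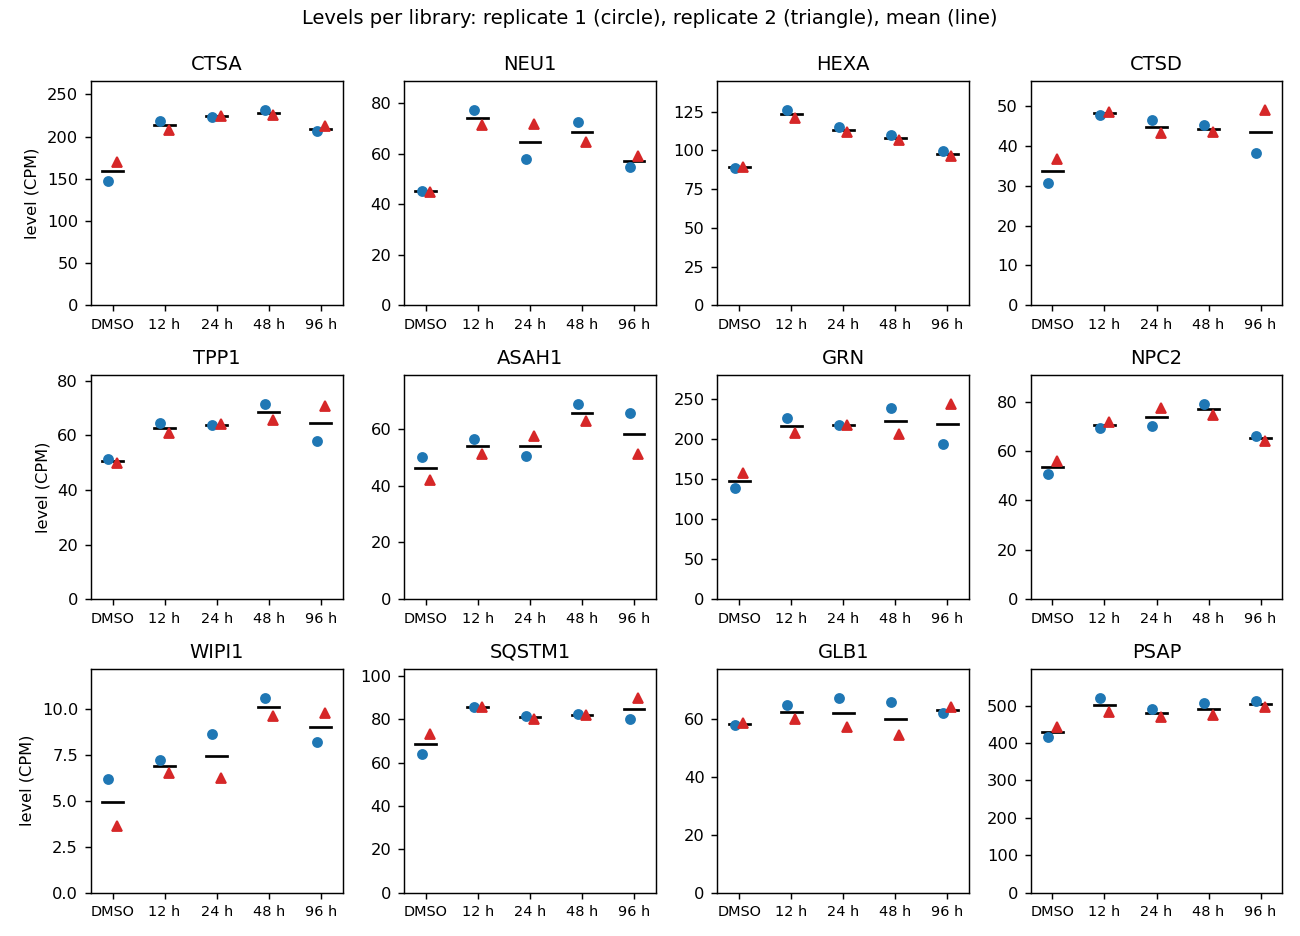
Levels in CPM (vertical axis, from 0) of 12 genes in DMSO and at 12, 24, 48 and 96 h of WA-68, with replicate 1 as a circle, replicate 2 as a triangle and the mean as a line. The first 10 genes were called higher at 1 or more times and have all 8 WA-68 libraries above both DMSO libraries, while GLB1 and PSAP were not called.

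Of the 3 soluble carriers and activators, GRN and NPC2 rose at every time. GRN (ENSG00000030582, chromosome 17, 44345086 to 44353102) encodes progranulin, a secreted glycoprotein that is cut into granulins in the lysosome. It stood at 139 and 158 CPM in DMSO, 227 and 208 CPM at 12 h, 218 CPM in both 24 h libraries, 239 and 207 CPM at 48 h, and 194 and 244 CPM at 96 h. The WA-68 libraries lay above DMSO throughout, and those at 96 h were the furthest apart. Its log2 fold change was nearly level over time, at 0.55, 0.56, 0.59 and 0.56 with an SE of 0.11 (edgeR adjusted p = 0.00421, 0.00377, 0.00106 and 0.000899). The calls at 48 and 96 h held without any single library, that at 12 h was lost without replicate 1 of 12 h (adjusted p = 0.114), and that at 24 h without either 24 h library.

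NPC2 (ENSG00000119655, chromosome 14, 74476192 to 74494177), which hands cholesterol to the membrane protein NPC1, stood at 50.8 and 56.0 CPM in DMSO. It stood at 69.4 and 71.9 CPM at 12 h, 70.1 and 77.6 CPM at 24 h, 79.0 and 74.8 CPM at 48 h, and 65.9 and 64.3 CPM at 96 h. Every WA-68 library lay above DMSO, with the highest level at 48 h. The log2 fold changes were 0.41, 0.47, 0.53 and 0.29 (edgeR adjusted p = 0.0167, 0.00517, 0.000927 and 0.0465). The 48 h call held without any single library, the 12 h call was lost without replicate 1 of DMSO or either 12 h library, the 24 h call without replicate 2 of 24 h, and the 96 h call without any 1 library other than replicate 2 of DMSO.

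PSAP, prosaposin, is the precursor of the saposins that present sphingolipids to hydrolases, and per kilobase of exon it had the highest DMSO level of the 37 genes (132.6 CPM per kb, against 44.2 for CD63, 40.3 for GRN and 36.8 for LAMP1). It stood at 416 and 443 CPM in DMSO and between 469 and 520.4 CPM in the WA-68 libraries, all 8 above DMSO. Its log2 fold change of 0.16 to 0.23 was not called (lowest adjusted p = 0.0695, at 96 h), and it was called at 12, 48 and 96 h with the GC offset. The ratio of GRN to PSAP CPM was 0.334 and 0.356 in DMSO and ran from 0.379 to 0.492 with WA-68, a description of a pair chosen after its values were seen.

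None of the 7 lysosomal membrane proteins was called against DMSO by edgeR with all libraries, TMM factors and no GC offset. LAMP1 and LAMP2, the abundant glycoproteins that line the membrane, had log2 fold changes of 0.17 to 0.29 and 0.04 to 0.29. LAMP1 stood at 203 and 219 CPM in DMSO and between 230.2 and 264 CPM with WA-68, all 8 libraries above DMSO. Its adjusted p in that edgeR fit missed the threshold (0.0818, 0.076, 0.143 and 0.246). LAMP1 was called at 12, 24 and 48 h with the GC offset and in the fit without replicate 2 of DMSO and of 96 h, and at 12 and 24 h by DESeq2. LAMP2 stood at 155 and 123 CPM in the DMSO libraries and at 162 and 123 CPM in those of 96 h, with both replicates 2 the lower. SCARB2, the receptor that brings glucocerebrosidase to the lysosome, ranged from 0.16 to 0.20, the tetraspanin CD63 from 0.05 to 0.12 and the cholesterol exporter NPC1 from 0.02 to 0.11. The calcium channel MCOLN1 ranged from 0.02 to 0.16 and the chloride transporter CLCN7 from -0.10 to 0.10. For MCOLN1 and CLCN7, both of which carry CACGTG in the windows above, 1 of the 8 WA-68 libraries lay above both DMSO libraries. At an unadjusted p under 0.05 the group's counts were 1, 2, 2 and 0 of 7. The share of all genes under that threshold was not counted, so these numbers have no background to be read against.

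Among the 4 proton pump genes, none was called against DMSO by edgeR with all libraries, TMM factors and no GC offset. ATP6V0D1, a subunit of the membrane sector, ATP6V1A, the catalytic subunit, and the accessory subunit ATP6AP1 had log2 fold changes between -0.08 and 0.21. ATP6V1H, a regulatory subunit of the cytosolic sector, stood at 48.0 and 36.9 CPM in DMSO, 56.2 and 54.4 CPM at 12 h, 47.4 and 51.7 CPM at 24 h, 52.0 and 52.9 CPM at 48 h, and 42.9 and 37.8 CPM at 96 h. Its 12 h difference from DMSO was 0.37 (adjusted p = 0.0818), and at 96 h the difference was -0.08. With the GC offset ATP6V1H was called at 12 h, and without replicate 1 of DMSO at 12, 24 and 48 h. ATP6AP1 was called at 96 h in the fit without replicate 2 of DMSO and of 96 h. The pump genes numbered 1, 0, 1 and 1 of 4 at an unadjusted p under 0.05, a threshold at which all genes were not counted.

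In autophagy, 2 of 7 genes were called. WIPI1 (ENSG00000070540, chromosome 17, 68420948 to 68457513), which binds phosphoinositides on the forming autophagosome, was the gene with the largest fold change of the 37, at low counts (31 to 92 per library). It stood at 6.22 and 3.66 CPM in DMSO, 7.27 and 6.55 CPM at 12 h, 8.67 and 6.26 CPM at 24 h, 10.6 and 9.62 CPM at 48 h, and 8.24 and 9.82 CPM at 96 h. The WA-68 libraries lay above both DMSO libraries, with replicate 2 of 24 h close to replicate 1 of DMSO. It rose 1.97-fold at 48 h, a log2 fold change of 0.98 with an SE of 0.23 (edgeR adjusted p = 0.00738), and 1.74-fold at 96 h (adjusted p = 0.0217). The 48 h call was lost without replicate 2 of DMSO (0.0636) or replicate 1 of 48 h, and the 96 h call without replicate 2 of DMSO (0.145) or of 96 h (0.112). The 96 h value of 0.80 rose to 1.28 when replicate 1 of DMSO was left out, and was 0.52 when replicate 2 of DMSO was. With replicate 2 of both DMSO and 96 h left out it was 0.41. Its exons share 828 bases of 3402 with ARSG on the opposite strand, which held 27 counts in all.

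SQSTM1 (ENSG00000161011, chromosome 5, 179806398 to 179838078), the ubiquitin-binding cargo receptor p62, stood at 64.0 and 73.3 CPM in DMSO, 85.8 CPM in both 12 h libraries, 81.6 and 80.4 CPM at 24 h, 82.4 and 82.2 CPM at 48 h, and 80.1 and 89.95 CPM at 96 h. All 8 WA-68 libraries were above DMSO, and they lay between 80.1 and 89.95 CPM with no order over time. It was called at 96 h with a log2 fold change of 0.31 and an SE of 0.095 (edgeR adjusted p = 0.032), a call lost without replicate 1 of DMSO (log2 fold change 0.20, adjusted p = 0.23), replicate 2 of 96 h, either 24 h library or replicate 1 of 48 h. The GC offset called it at all 4 times. Its exons share 1582 bases of 7654 with MRNIP on the opposite strand, which held 960 counts in all.

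The ubiquitin-like proteins that coat the autophagosome were not called by edgeR with all libraries, its filterByExpr filter, TMM factors and no GC offset. GABARAPL1 stood at 52.2 and 55.4 CPM in DMSO and between 57.4 and 66.5 CPM with WA-68, all 8 libraries above DMSO, with log2 fold changes of 0.16 to 0.28. It was called at 24 and 96 h with the GC offset, and at 96 h with library size only or a filter of 5 CPM in 2 libraries. GABARAPL2 stood at 24.7 and 24.6 CPM in DMSO and between 23.2 and 27.0 CPM with WA-68, on both sides of DMSO. MAP1LC3B ranged from 0.08 to 0.27 in log2 fold change, and its reads may be shared with the near-identical copy MAP1LC3B2. The kinase ULK1, which starts autophagy, and UVRAG, a partner of the lipid kinase PIK3C3, ranged from -0.07 to 0.18 and from -0.05 to 0.08.

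The transcription factors of the pathway were not called at any time by edgeR with all libraries, TMM factors and no GC offset. TFEB stood at 7.38 and 9.10 CPM in DMSO and between 6.95 and 10.4 CPM with WA-68, and 5 of the 8 WA-68 libraries lay at or below the higher DMSO library. TFE3 stood at 52.0 and 64.0 CPM in DMSO and between 53.5 and 75.6 CPM with WA-68. Its difference was largest at 96 h (log2 fold change 0.30, 95% interval 0.05 to 0.54, adjusted p = 0.102 by edgeR). That difference was called without replicate 2 of DMSO (0.44, adjusted p = 0.0145), without replicate 2 of both DMSO and 96 h (adjusted p = 0.0356) and with the GC offset (adjusted p = 0.0268). The sign of the TFEB difference turned at all 4 times without replicate 1 of DMSO. MITF stood at 1.24 and 1.42 CPM in DMSO and between 1.13 and 2.25 CPM with WA-68, from 9 to 23 counts per library, so its interval at 48 h ran from -0.40 to 1.28 and a doubling lies within that interval. The interval of TFEB at 48 h ran from -0.40 to 0.49. These factors are controlled largely at the protein level, which was not measured.

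The 96 h and 12 h groups were compared to see how far the early response lasted. The DMSO mean does not enter this difference, but the DMSO libraries enter the estimate of the spread and the scaling: without replicate 1 of DMSO 585 genes were called higher and 532 lower over all genes, against 391 and 285 with it. At 96 h 3 of the 37 genes were called lower than at 12 h (1.74% of all genes) and 0 higher (2.39%). NEU1 fell from 77.3 and 71.5 CPM to 54.9 and 59.1 CPM, a log2 fold change of -0.39 with an SE of 0.11 (edgeR adjusted p = 0.0381). HEXA fell from 126 and 121 CPM to 99.7 and 96.3 CPM (-0.34, SE 0.088, adjusted p = 0.0296). ATP6V1H fell from 56.2 and 54.4 CPM to 42.9 and 37.8 CPM (-0.45, SE 0.12, adjusted p = 0.0279).

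Both 96 h libraries lay below both 12 h libraries for 15 of the 37 genes, these 3 among them (25.3% of all genes), and above them for 6 (23.5%). None of the 3 calls was kept without replicate 1 or replicate 2 of 12 h or replicate 2 of 96 h, and DESeq2 called 1 of the 3. The NEU1 and HEXA calls were also lost without replicate 1 of 96 h or either 48 h library, and that of HEXA without either 24 h library. CTSA, GRN, PSAP and TPP1 differed between the times by -0.03 to 0.03. WIPI1 had the largest difference upward, 0.37, and was not called (adjusted p = 0.409). All 7 membrane proteins had negative values, from -0.20 to -0.01, against a median of -0.01 over all genes, and 0 of the 7 had an unadjusted p under 0.05. With the GC offset CLCN7 was called lower.

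**Figure D3:**
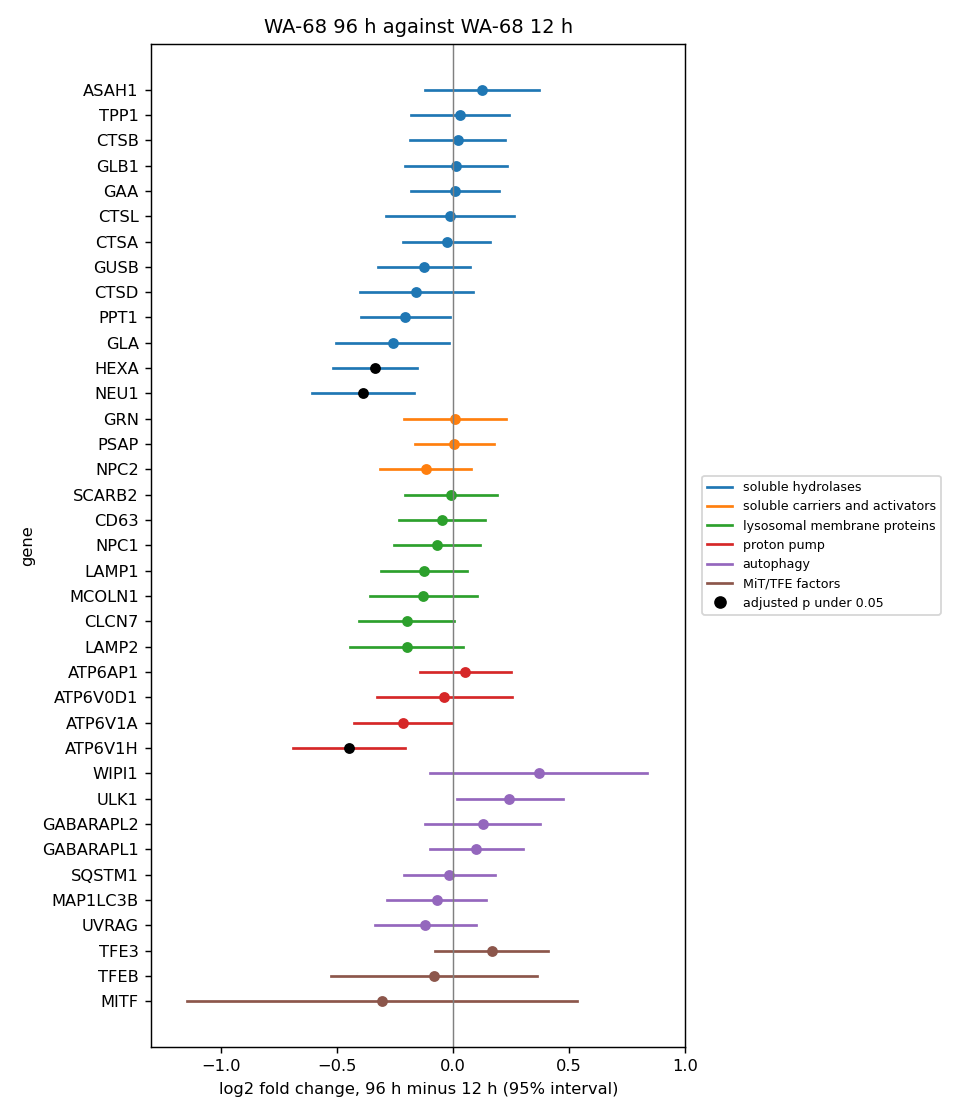
Log2 fold change at 96 h against 12 h (horizontal axis, points) with its 95% interval (lines) for each of the 37 genes, coloured by role and with black points for genes at an adjusted p under 0.05. The 3 black points are NEU1, HEXA and ATP6V1H, at -0.39, -0.34 and -0.45.

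Other genes of the pathway were counted in 6 further lists. Of 35 other hydrolases tested, 4, 3, 9 and 11 were called higher at 12, 24, 48 and 96 h and 0 lower at each time, with medians of 0.28, 0.25, 0.32 and 0.26. Of all genes 1.23%, 1.34%, 4.01% and 6.14% were called higher at these times, and 1.92%, 2.25%, 5.38% and 6.86% lower, and the counts of the other lists are to be read against the same shares. ARSA, the arylsulfatase that acts on sulfatide, rose from 19.2 and 17.3 CPM in DMSO to 29.8 and 30.7 CPM at 96 h, a log2 fold change of 0.72 with an SE of 0.12 (edgeR adjusted p = 0.000266). ARSB, which acts on dermatan and chondroitin sulfate, rose by 0.56 at 96 h (adjusted p = 0.000452) and the iduronidase IDUA by 0.81 (adjusted p = 0.00171). The cathepsin CTSO rose from 3.11 and 3.19 to 6.46 and 7.16 CPM at 96 h (1.10, SE 0.23, adjusted p = 0.00193). These 4 calls at 96 h held without any single library. As among the 37 genes, the hydrolase list was called upward only.

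Of 22 other membrane proteins tested 0, 0, 2 and 2 were called higher, both times LAMP3 and MCOLN3, against 4.01% and 6.14% of all genes at those 2 times. LAMP3, a LAMP family member of restricted expression, rose from 0.311 and 0.355 CPM in DMSO to 3.56 and 3.23 CPM at 96 h, a log2 fold change of 3.33 with an SE of 0.47 (edgeR adjusted p = 3.19e-05), at 3 to 38 counts per library. Its 48 h call was lost without either DMSO or 48 h library. The calcium channel MCOLN3 rose from 77.6 and 67.4 CPM to 135 and 94.7 CPM (0.67, adjusted p = 0.000624), with replicate 2 of 96 h well below replicate 1, and its calls at both times held without any single library. Of 16 other pump subunits 2, 0, 1 and 1 were called higher, the last close to the 6.14% of all genes at 96 h, with ATP6V0E2 up by 0.61 at 96 h (adjusted p = 0.00085), and ATP6V0B up by 0.42 at 12 h (adjusted p = 0.0335), a call that was lost without any 1 of the 12 h or 24 h libraries or replicate 2 of DMSO. ATP6V1E1 was called at 12 h (0.45) and 48 h (0.36), the first lost without replicate 2 of DMSO or either 12 h library and the second without any 1 library other than those of 96 h.

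Of 19 sorting genes 1, 1, 2 and 1 were called higher, the last under the 6.14% of all genes at 96 h. SORT1, the sortilin receptor that binds progranulin, stood at 88.8 and 80.3 CPM in DMSO and between 106 and 117 CPM in the WA-68 libraries, and was called at all 4 times (log2 fold changes 0.39, 0.38, 0.33 and 0.41, adjusted p = 0.0178, 0.0185, 0.0255 and 0.00377 by edgeR). Its 96 h call held without any single library, and those at the other times were lost without replicate 2 of DMSO or either library of the time tested, that at 48 h also without replicate 1 of 24 h. VPS41, part of the tethering complex for fusion with the lysosome, was called at 48 h (0.37, adjusted p = 0.021), a call lost without replicate 2 of DMSO or either 48 h library.

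Of 42 other autophagy genes 1, 1, 2 and 1 were called higher and 1, 1, 1 and 2 lower. At 96 h both counts lie under the shares of all genes (6.14% higher and 6.86% lower). OPTN, a cargo receptor, was higher at all 4 times, from 31.9 and 28.5 CPM in DMSO to 49.0 and 45.5 CPM at 48 h (0.64, SE 0.11, adjusted p = 0.00078 by edgeR). BNIP3, a receptor for the removal of mitochondria that is also induced by hypoxia, was lower at all 4 times. It fell from 51.1 and 59.6 CPM in DMSO to 28.0 and 29.6 CPM at 96 h (-0.94, SE 0.12, adjusted p = 7.54e-06), and its relative BNIP3L was lower at 96 h (-0.35, adjusted p = 0.0202), a call lost without replicate 1 of DMSO or replicate 2 of 96 h. The calls of OPTN and BNIP3 at 48 and 96 h held without any single library, while that of OPTN was lost at 12 h without either 12 h library and at 24 h without replicate 2 of 24 h. The BNIP3 call at 24 h was lost without replicate 2 of DMSO or either 24 h library. Its call at 12 h was kept in 3 of 10 fits with 1 library left out, being lost without replicate 2 of DMSO or any 1 of the 12, 24 or 48 h libraries, and it was lost with DESeq2. PIK3C3, the lipid kinase of autophagosome formation, was called higher at 48 h (0.32, adjusted p = 0.0278), lost without replicate 2 of DMSO, replicate 1 of 24 h or either 48 h library. The median of this list lay between 0.03 and 0.09 at the 4 times.

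Of 24 genes that control TFEB and TFE3 at the lysosome surface 1, 0, 3 and 0 were called higher and 0, 0, 0 and 1 lower. Both counts at 96 h lie under the shares of all genes (6.14% and 6.86%). FLCN, which with the FNIP proteins acts on the Rag GTPases, rose from 73.5 and 75.1 CPM to 108 and 97.9 CPM at 12 h (0.47, adjusted p = 0.0161 by edgeR), a call lost without either 12 h library. FNIP1 and RRAGB were called at 48 h, each by 0.36 (adjusted p = 0.0203 and 0.0328), and both calls were lost without replicate 2 of DMSO or either 48 h library, that of RRAGB also without replicate 1 of 24 h. RRAGD, a Rag GTPase, was lower at 96 h, at 32.8 and 27.9 CPM against 42.1 and 41.0 CPM in DMSO (-0.45, adjusted p = 0.0139), a call lost without replicate 1 of DMSO or replicate 2 of 96 h. The medians of all 6 lists are shown beside those of the 37 genes in the plot of lists at 48 and 96 h.

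**Figure D4:**
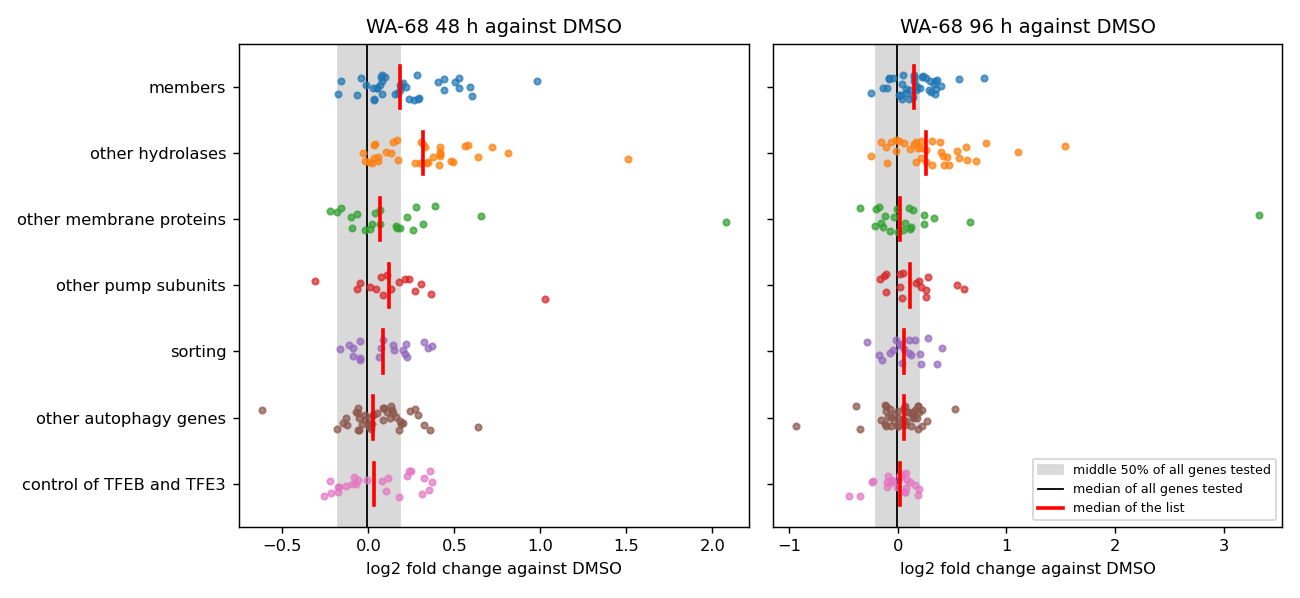
Log2 fold change against DMSO (horizontal axis) of each tested gene (points) in the 37-gene list and 6 further lists at 48 h (left) and 96 h (right), with the list median as a red line, and the median and middle 50% of all genes tested as a black line and a grey band. At 48 h the median of the other hydrolases (0.32) and of the 37 genes (0.18) lie to the right of the median of all genes, and those of other autophagy genes (0.03) and of the control genes (0.03) lie near it.

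The lists of lysosomal genes are also high in macrophages, so markers of other cell types were read in the same libraries. Of 12 macrophage and leukocyte markers 0 passed the filter, and PTPRC, CSF1R, AIF1, TYROBP, CD163 and MARCO had 0 counts in every library. Their summed level was 0.622 to 0.946 CPM in DMSO, 0.335 to 0.804 CPM at 12 h, 0.251 to 0.685 CPM at 24 h, 0.231 to 0.37 CPM at 48 h and 0.14 to 0.281 CPM at 96 h. Of 6 endothelial markers 0 passed, PECAM1 had 0 counts, and their sum stayed between 0.14 and 1.01 CPM. Of 8 melanocyte and osteoclast markers, cells in which MITF is prominent, 1 (PMEL) passed and 5 had 0 counts. Their summed level was higher in most WA-68 libraries, at 1.09 to 1.18 CPM in DMSO, 1.84 to 2.01 CPM at 12 h, 1.76 to 2.13 CPM at 24 h, 1.11 to 1.62 CPM at 48 h and 1.5 to 2.53 CPM at 96 h, with at most 18 counts of a gene in a library. PMEL, a melanosome protein, had log2 fold changes of 0.80, 0.76, 0.20 and 0.89 (SE 0.41 to 0.45) and was not called (edgeR adjusted p = 0.355, 0.367, 0.843 and 0.159). The part of these low levels in the results was not tested. All 10 synovial sarcoma markers passed, with a summed level of 1240 to 1350 CPM in DMSO and 1160 to 1300 CPM in the WA-68 libraries. Of the 10, SIM2 and TBX2, both transcription factors, were called lower at all 4 times, with log2 fold changes of -1.56 and -0.61 at 96 h (edgeR adjusted p = 4.9e-09 and 0.000416), and the receptor FGFR2 was called higher at 12, 48 and 96 h (0.33, 0.35 and 0.65).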

How the data were processed

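Poly(A) RNA was sequenced as stranded paired-end libraries, per the labels' protocols. The deposited table holds raw read counts per gene from the authors, with no normalization. The submitters' processing notes name bcl2fastq, FastQC, Trim Galore, cutadapt, STAR, featureCounts and GRCh38. Neither the labels nor the headers state tool versions, which annotation was counted, the strand setting or how reads with several matches were treated.

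Genes kept by edgeR's filterByExpr (16382) were fitted with 1 mean per group over all 10 libraries, TMM factors and a quasi-likelihood F test in edgeR 4.0.16 under R 4.3.3 (5 residual and 18.5 prior degrees of freedom, common biological coefficient of variation 7.17%). The SE is the log2 fold change over the square root of F. The script was tested on simulated data. Positions, exon lengths and GC content come from GENCODE release 29 (GC known for 95.8% of genes tested). Alternatives included RLE factors, library size only, no filter, a filter of 5 CPM in 2 libraries, a replicate term, GC offsets, DESeq2 1.42.0, an adjusted p under 0.01 and left-out libraries.

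The members, lists and tests were chosen with earlier results of these data known. Named with values in every library were members called at 2 or more times against DMSO or between 96 and 12 h, with TFEB, TFE3 and MITF, and up to 4 called genes of each further list. ASAH1, SQSTM1, GLB1, GAA, CTSL, GLA, PSAP, LAMP1, LAMP2 and the GABARAPL genes were added after their values were seen. The labels name the replicates biological, without saying how cultures were separated.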

Additional observations from a re-analysis of the deposited data

Results flagged for a closer look

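The response of 3 genes differed between 2 durations of WA-68 by a direct test of 96 h against 12 h in the edgeR fit. NEU1 was lower at 96 h by a log2 fold change of -0.388 (adjusted p = 0.0381), HEXA by -0.335 (adjusted p = 0.0296) and ATP6V1H by -0.449 (adjusted p = 0.0279). Both 96 h libraries lay below both 12 h libraries for each gene. Without replicate 1 of 12 h the log2 fold changes were -0.325, -0.302 and -0.419. All 3 calls were lost without either 12 h library or replicate 2 of 96 h, and those of NEU1 and HEXA also without other single libraries. No group held enough libraries to test for an outlying sample.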

How the results depend on the processing

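With 2 libraries a group, calls of members called higher moved with single libraries: leaving out each in turn gave 1 to 8 at 12 h, 1 to 8 at 24 h, 4 to 9 at 48 h and 3 to 9 at 96 h, and 0 to 3 lower at 96 h against 12 h. Of the 28 calls against DMSO 7 held without each library and under every other alternative, the stricter p included. These were NEU1 at 12 and 48 h, CTSA at 24 and 48 h, NPC2 at 48 h, and GRN at 48 and 96 h. Calls over all genes also fell at each time when 1 of its 2 libraries was left out.

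The GC offset gave 11 members higher at 12 h and 10 at 24 h, as it did with the replicate term added. Leaving out replicate 2 of DMSO and of 96 h together gave 12 and 11. Library size as the only scaling gave 9, 8, 10 and 11 at the 4 times, with LAMP1 among them at 12 and 24 h. Over all 16382 genes tested it called 287, 301, 826 and 1228 higher, against 201, 220, 657 and 1006 with TMM factors. At 96 h the 4 libraries compared alone gave 3, and an adjusted p under 0.01 gave 2. Over all genes these called 689 of 15840 and 542 of 16382 higher. Between 96 and 12 h DESeq2 gave 1 lower member, and an adjusted p under 0.01 gave 0. No member was called lower against DMSO in any of these fits.

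Whether replicate numbers pair the samples is not stated in the labels. Correlations of deviations between groups ran from -0.123 to 0.186, the highest between DMSO and 96 h. Such values cannot decide the question, since low correlations over genes do not show that cultures were unpaired. A replicate block gave 6, 5, 8 and 5 members higher at the 4 times, losing HEXA at 48 h and CTSD, NEU1 and NPC2 at 96 h, and 2 lower at 96 h against 12 h. With the 48 h numbers crossed, an alternative chosen after seeing the data, 9 were higher at 48 h.

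The sign of uncalled differences of the MiT/TFE factors turned without single libraries, which gave ranges of -0.009 to 0.294, -0.228 to 0.361, -0.117 to 0.186 and -0.118 to 0.303 for TFEB at the 4 times, -0.024 to 0.276, -0.114 to 0.186 and -0.109 to 0.239 for TFE3 at 12, 24 and 48 h, and -0.213 to 0.767 for MITF at 24 h. Without replicate 1 of DMSO TFEB gave -0.095 and -0.094 at 24 and 96 h and TFE3 -0.082 at 48 h. Without the first replicate of the group tested TFEB gave -0.045 at 48 h and TFE3 -0.069 at 24 h. The cause was not tested.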
